A study of Mus musculus with 4 samples.

Results

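Nucleotide excision repair (NER) is the pathway that removes bulky adducts from DNA, and 43 mouse genes that act in it were read in 4 oral cancer cell lines. The 43 genes were chosen by name as known NER factors, and their Ensembl identifiers were matched to symbols through GENCODE M21, which found 43 of 43 among the 34721 entries of the expression table. All 43 had at least 1 FPKM (fragments per kilobase of transcript, scaled to library size) in at least 1 line and so belonged to the 14165 genes that passed this filter and were tested.

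The lines came from male C57BL/6 mice, which entered the experiments at 6 to 8 weeks of age. Their buccal mucosa was then treated with the carcinogen 7,12-dimethylbenzanthracene (DMBA) until oral tumors were overt, so the tumors came from older mice. AOC3 and AOC11 were grown from the primary oral tumors of 2 mice, and AOC3-LN and AOC11-LN from the lymph node metastases of the same mice. By the paper, DMBA was given for longer to the AOC11 mouse than to the AOC3 mouse. Tumor cells were passaged under the skin of the flank, separated from fibroblasts with an isolation kit and cultured in DMEM/F12 medium with fetal bovine serum. Each line was sequenced as 1 library, so a difference between 2 lines has no replicate check, and each pair of lines stands for 1 mouse.

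NER begins with recognition, either anywhere in the genome by the XPC complex with the help of the DDB1-DDB2 ubiquitin ligase, or at a stalled RNA polymerase II by the CSA and CSB proteins. The helicase complex TFIIH then opens the DNA, XPA and RPA hold it open, the nucleases XPG and XPF-ERCC1 cut on either side of the lesion, and replication polymerases with a ligase fill the gap. DMBA, once activated in the cell, forms bulky adducts of the kind this pathway removes, and people who inherit defects in it (xeroderma pigmentosum) develop skin cancer and also tumors of the tongue.

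The libraries were estimated to hold 33700000 and 28300000 fragments in the AOC3 pair and 33800000 and 32400000 in the AOC11 pair, where, here and below, each pair is given with the primary line first. At this depth the 43 genes had between 208 estimated fragments (Xpa in AOC11) and 55530 (Ddb1 in AOC11-LN) per line, with a median of 1934. Counting error was therefore at most about 0.10 on the log2 scale. The epithelial label of the cells was met by their markers. Epcam had 416 to 518 FPKM, Cdh1 144 to 183 FPKM, and the 7 epithelial markers together summed to 3487 and 3521 FPKM in the AOC3 pair and 2780 and 3082 FPKM in the AOC11 pair. The basal keratin Krt5 separated the mice, with 499 and 275 FPKM in the AOC3 pair against 4.99 and 17.0 FPKM in the AOC11 pair. Krt14, another basal keratin, went the other way, with 166 and 150 FPKM in the AOC3 pair against 257 and 259 FPKM in the AOC11 pair. None of 6 fibroblast and 4 endothelial markers reached 1 FPKM in any line, and the highest of them was Col1a1 at 0.407 FPKM. Of 5 leukocyte markers, Cd3e and Adgre1 were listed at 0 in all lines and Ptprc stayed at or below 0.0640 FPKM, whereas Cd68, a lysosomal protein gene not restricted to leukocytes, had 13.0, 8.79, 6.15 and 4.45 FPKM, the AOC3 pair first. Lists of 4 values below follow this order.

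All steps of the pathway were transcribed in every line. The median member had 27.0, 26.6, 28.8 and 27.8 FPKM, and the median percentile rank of the members among the genes tested was 72.9 to 73.3. The median of all genes tested lay between 9.91 and 10.9 FPKM. Levels within the pathway spanned a wide range. Ddb1, the large subunit of the damage-binding complex, was the highest in every line. Uvssa, a factor that stabilizes CSB at stalled polymerase, was the lowest in all lines except AOC11-LN, where Ercc6 (2.75 FPKM) was just below it (2.77 FPKM). The FPKM ratio of Ddb1 to Uvssa was between 144 and 195. The summed level of the 43 genes was 1797 and 1869 FPKM in the AOC3 pair and 1981 and 2051 FPKM in the AOC11 pair.

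**Figure D1:**
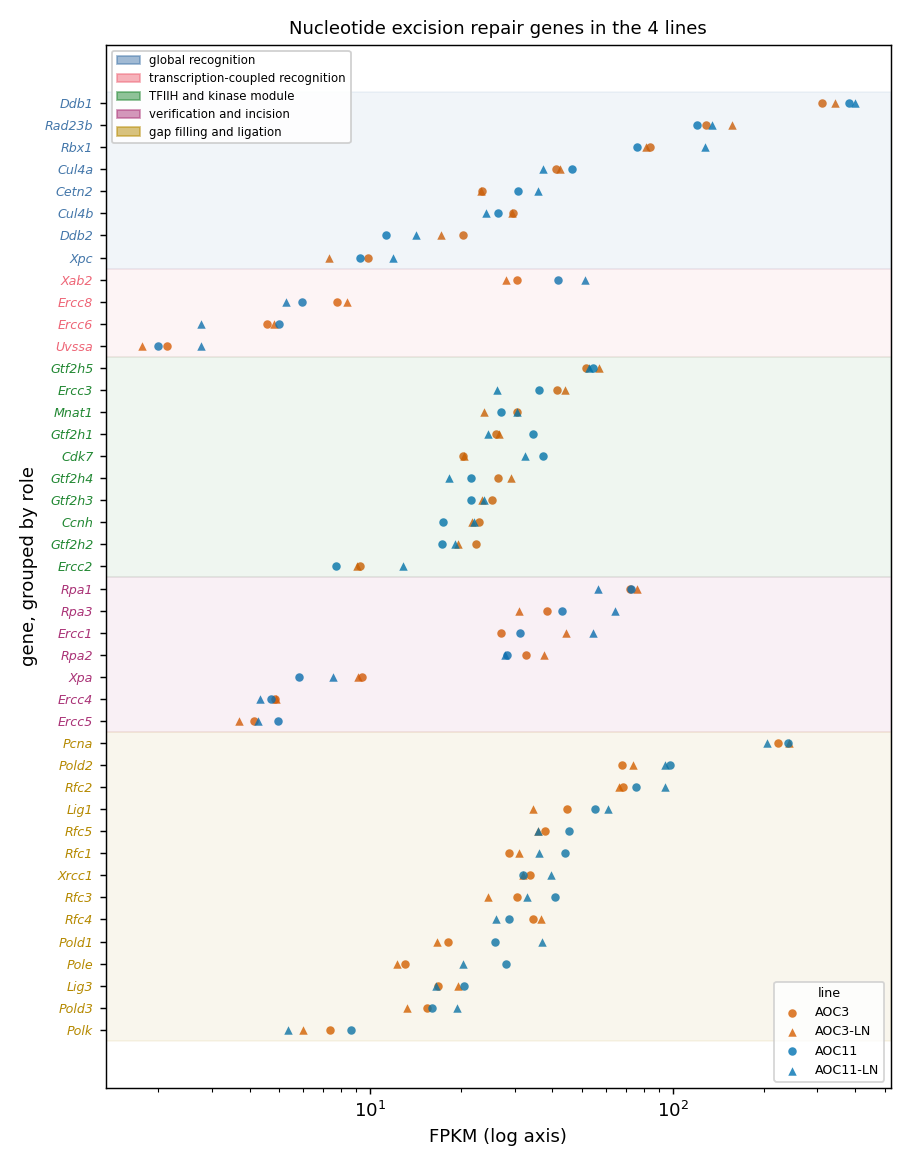
FPKM of the 43 nucleotide excision repair genes (horizontal log axis) in the 4 lines, 1 point per library, with genes grouped and colored by role and ordered by mean level; circles are primary lines, triangles lymph node lines, orange the AOC3 mouse and blue the AOC11 mouse. Ddb1 (311 to 399 FPKM) and Pcna (204 to 242 FPKM) sit far to the right of Uvssa (1.76 to 2.77 FPKM), and for most genes the 4 points lie close together.

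From line to line the members varied little. The difference between the highest and the lowest line, on the scale of quantile-normalized log2(FPKM + 1), had a median of 0.47 over the members and 0.69 over all genes tested, which as a whole have lower levels. The widest range among the members was 1.01 (Pold1).

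The first comparison asked whether the lines of the 2 mice differed. AOC3 and AOC3-LN, the AOC3 lines, were set against the AOC11 pair as a difference of means, so that a positive log2 difference means a higher level in the AOC3 lines. None of the 43 members passed limma at an adjusted p under 0.05, with Benjamini-Hochberg adjustment over all genes tested, of which 0.205% passed. At an unadjusted p under 0.05, limma listed 6 members (Cdk7, Pole, Xab2, Pold1, Ddb2 and Gtf2h4) against 18.7% of all genes tested. None passed a log2 difference of 1 in either direction, against 11.1% of all genes. The members split almost evenly, 20 higher and 23 lower in the AOC3 lines, with a median log2 difference of -0.05 beside 0.01 over all genes tested. The median changed sign with 1 library, since it was 0.08 without AOC11.

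Both AOC3 lines lay above both AOC11 lines for 13 members, beside 26.3% of all genes tested, and below them for 13, beside 26.7%. These counts used normalized values. In the deposited FPKM values the counts were 10 and 14 members, beside 22.5% and 30.5% of all genes. The separation of Ccnh, Gtf2h3, Rpa1 and Uvssa was present only after normalization, and that of Ercc5 and Pold3 only before it. The shares of the members are near those of all genes. An exact permutation test of 2 against 2 lines cannot give a two-sided p below 0.333, so it was not used.

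At each site the mice were also compared directly. Between the primary lines, AOC3 minus AOC11, 1 member passed the fold threshold (Pole), against 11.9% of all genes. Between the lymph node lines, AOC3-LN minus AOC11-LN, 1 member passed (Pold1), against 16.3% of all genes. Both encode the catalytic subunits of replicative polymerases, epsilon and delta, and both were lower on the AOC3 side. These comparisons and the 2 comparisons of lymph node with primary lines share libraries, so their values are given side by side and are not independent of each other.

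**Figure D2:**
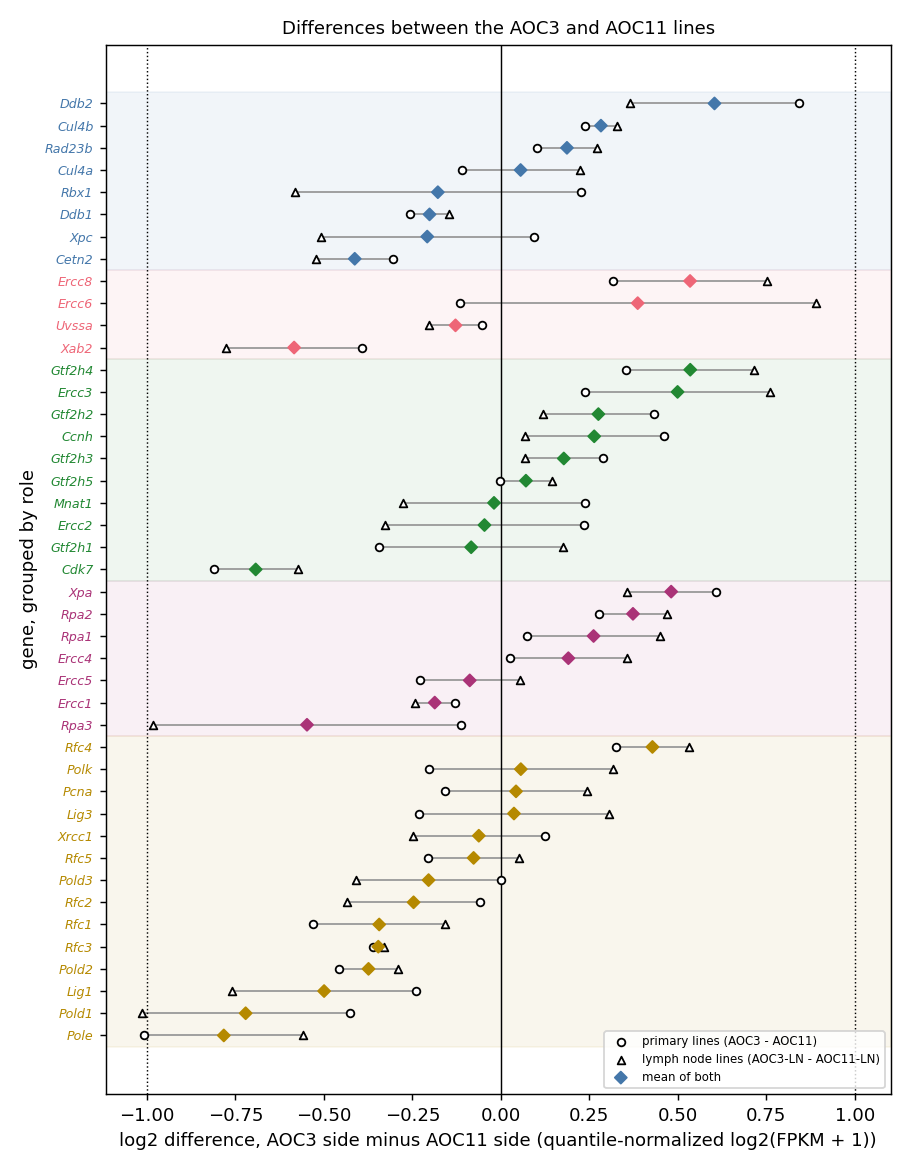
Log2 differences between the AOC3 side and the AOC11 side for the 43 genes (horizontal axis, quantile-normalized log2(FPKM + 1)), with circles for the primary lines, triangles for the lymph node lines, diamonds for their mean and dotted lines at -1 and 1. The points run from -1.01 for Pold1 in the lymph node lines to 0.89 for Ercc6 in the same lines, and the gap filling genes sit mostly to the left of 0.

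Global recognition was represented by 8 genes, with 4 higher and 4 lower in the AOC3 lines and a median log2 difference of -0.06. Ddb1 (ENSMUSG00000024740.10) had 311 and 343 FPKM in the AOC3 pair and 383 and 399 FPKM in the AOC11 pair. Its partner Ddb2 (ENSMUSG00000002109.14), the subunit that binds damaged DNA, had 20.3, 17.2, 11.3 and 14.2 FPKM. Ddb1 was thus lower and Ddb2 higher in both AOC3 lines, and the FPKM ratio of Ddb1 to Ddb2 was 15.3 and 19.9 in the AOC3 lines and 34.0 and 28.1 in the AOC11 lines. The log2 difference of Ddb2 was 0.60 (limma adjusted p = 0.239, standard error 0.21), the largest of the group, and that of Ddb1 was -0.20. Ddb2 shares 652 exonic bases with Acp2 on the opposite strand, and although the libraries were stranded, the sources used here do not state whether fragments were assigned by strand. The XPC protein is the sensor of distorted DNA in untranscribed regions. Xpc had 9.82, 7.33, 9.23 and 11.9 FPKM, the lowest of the group, and its mouse pairs overlapped. Its stabilizing partners were higher, since Rad23b exceeded Xpc by an FPKM ratio of 11.3 to 21.4 and Cetn2 by 2.39 to 3.33. Cetn2, a centrin that also serves at the centrosome, had 23.5 and 23.3 FPKM in the AOC3 pair and 30.7 and 35.7 in the AOC11 pair (log2 difference -0.41, adjusted p = 0.311 from limma). The ligase scaffold Cul4b had 29.6, 29.4, 26.4 and 24.2 FPKM (log2 difference 0.28). The other scaffold Cul4a and the RING subunit Rbx1 had overlapping mouse pairs, with means of 41.7 and 92.2 FPKM.

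Transcription-coupled recognition had the lowest median level of the roles, between 4.03 and 6.60 FPKM. Of its 4 members, 2 were higher and 2 lower in the AOC3 lines. Ercc8, which encodes CSA, had 7.74, 8.37, 5.96 and 5.28 FPKM. Ercc6, which encodes CSB, had 4.56, 4.83, 4.99 and 2.75 FPKM. Both AOC3 lines were above both AOC11 lines for Ercc8 (log2 difference 0.53, adjusted p = 0.304 from limma). For Ercc6 3 lines lay close together and AOC11-LN alone was low, so its log2 difference of 0.39 came from the lymph node lines (0.89) and not the primary lines (-0.12). Uvssa had 2.13, 1.76, 1.99 and 2.77 FPKM, and its log2 difference was -0.13. Xab2, an XPA-binding protein that also belongs to a splicing complex, was the highest of the group at 30.5, 28.1, 41.9 and 51.2 FPKM. It was lower in both AOC3 lines, with a log2 difference of -0.58 (limma adjusted p = 0.214, standard error 0.19). Xab2 shares 570 exonic bases with Camsap3 on the opposite strand, which had 2.71 to 6.39 FPKM.

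TFIIH, which also starts transcription by RNA polymerase II, has a core of 7 subunits on the list and a kinase module of 3. Of the 10 genes, 6 were higher and 4 lower in the AOC3 lines, with a median log2 difference of 0.12. The kinase Cdk7 (ENSMUSG00000069089.8) departed most, with 20.3 and 20.4 FPKM in the AOC3 pair against 37.3 and 32.5 FPKM in the AOC11 pair. Its log2 difference was -0.69 (standard error 0.18, adjusted p = 0.168 from limma), and its unadjusted p of 0.0114 was the lowest of all 43 members. Its module partners did not share that pattern. Ccnh, the cyclin of the module, had a log2 difference of 0.26, and Mnat1, the assembly factor, one of -0.02. In the core, Gtf2h4 had 26.5, 29.3, 21.6 and 18.2 FPKM (log2 difference 0.54, standard error 0.19, adjusted p = 0.240 from limma). The helicase gene Ercc3, which encodes XPB, had 41.5, 43.9, 36.0 and 26.2 FPKM (log2 difference 0.50, adjusted p = 0.303 from limma). Both were higher in both AOC3 lines than in either AOC11 line, and for both the gap was wider between the lymph node lines, 0.72 for Gtf2h4 and 0.76 for Ercc3, than between the primary lines, 0.35 and 0.24. The other helicase gene Ercc2, which encodes XPD, was the lowest of the group at 9.26, 9.04, 7.74 and 12.8 FPKM, with overlapping mouse pairs. It overlaps Klc3 on the opposite strand by 744 exonic bases, and Klc3 had 12.7, 10.3, 20.3 and 36.4 FPKM. Gtf2h5, the small subunit lost in one form of trichothiodystrophy, was the highest of the group and the steadiest of all, at 51.6, 56.9, 54.6 and 53.02 FPKM. The FPKM ratio of Gtf2h5 to Ercc2 ranged from 4.14 in AOC11-LN to 7.05 in AOC11. The remaining core genes Gtf2h1, Gtf2h2 and Gtf2h3 had mean levels of 27.9, 19.5 and 23.5 FPKM and log2 differences of -0.08, 0.28 and 0.18.

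Damage verification and incision was carried by 7 genes, 4 higher and 3 lower in the AOC3 lines, with a median log2 difference of 0.19. Xpa, the scaffold of the incision complex, had 9.41, 9.10, 5.84 and 7.56 FPKM, higher in both AOC3 lines (log2 difference 0.48, adjusted p = 0.334 from limma). It also had the fewest estimated fragments of all members, and it shares 77 exonic bases with Ncbp1 on the opposite strand, which had 62.9, 75.7, 44.2 and 40.4 FPKM and was itself higher in both AOC3 lines. The subunits of RPA, the trimer that coats the undamaged strand, did not move together. Rpa1 had 72.1, 75.8, 72.5 and 56.6 FPKM and a log2 difference of 0.26, which was 0.07 between the primary lines and 0.45 between the lymph node lines. Rpa2 had 32.8, 37.5, 28.3 and 27.8 FPKM and a log2 difference of 0.37. Rpa3 had 38.4, 30.9, 43.0 and 64.6 FPKM and a log2 difference of -0.55 (adjusted p = 0.338 from limma). Its value also rested on AOC11-LN, with -0.11 between the primary lines and -0.98 between the lymph node lines. AOC11-LN was thus the lowest line for the large subunit and the highest for the small one, and the FPKM ratio of Rpa1 to Rpa3 was 0.878 there and 1.69 to 2.45 in the other lines. The longest annotated transcript of Rpa3 has 670 bases, the shortest such length among the members, which makes its FPKM more dependent on the length correction. The nuclease genes were low and flat, with Ercc5 (XPG) at 4.15, 3.70, 4.95 and 4.28 FPKM and Ercc4 (XPF) at 4.86, 4.87, 4.71 and 4.31 FPKM. The partner of XPF, Ercc1, was higher than Ercc4 in every line and is described with the lymph node lines.

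Gap filling and ligation was the largest role, with 14 genes, most of which also serve DNA replication. Of these, 10 were lower and 4 higher in the AOC3 lines, and the median log2 difference of -0.23 stood beside 0.01 over all genes tested. Under the other scalings, filters and left-out lines the median of the role was between -0.30 and -0.17, with 9 to 12 of the 14 lower. All lower genes except Pold2 lie on chromosome 5 (Pole, Rfc1, Rfc2, Rfc3 and Rfc5) or chromosome 7 (Pold1, Pold3, Lig1 and Xrcc1). All genes tested on these chromosomes had medians of -0.15 and -0.18. The 4 higher genes (Polk, Pcna, Rfc4 and Lig3) lie on other chromosomes. Whether the lower values go with the role or with these chromosomes was not tested. Both AOC3 lines lay below both AOC11 lines for 7 of the 14 (Pole, Pold1, Lig1, Pold2, Rfc1, Rfc2 and Rfc3), beside 26.7% of all genes tested, and above them for 1 (Rfc4), beside 26.3%. On chromosomes 5 and 7, which hold these 7 except Pold2, the share of genes tested with both AOC3 lines below was 38.9% and 39.2%. Pole (ENSMUSG00000007080.14), the catalytic subunit of polymerase epsilon, had 13.0 and 12.3 FPKM in the AOC3 pair and 28.2 and 20.2 FPKM in the AOC11 pair. Its log2 difference was -1.01 between the primary lines, -0.56 between the lymph node lines and -0.78 for both (standard error 0.23, adjusted p = 0.187 from limma). Without AOC11-LN the last value was just past the threshold. Pold1 (ENSMUSG00000038644.14), the catalytic subunit of polymerase delta, had 18.1, 16.6, 25.8 and 37.0 FPKM. The order of the AOC11 pair was reversed between these genes, since AOC11 was the highest line for Pole and AOC11-LN for Pold1. The log2 difference of Pold1 was -0.43 between the primary lines, -1.01 between the lymph node lines and -0.72 for both (standard error 0.24, adjusted p = 0.224 from limma). After median scaling the value between the lymph node lines fell just short of the threshold. Lig1, the replicative ligase, had 44.7, 34.6, 55.2 and 61.2 FPKM (log2 difference -0.50, adjusted p = 0.277 from limma). Lig3, the other ligase, was lower in level and overlapped between the mice. It shares 1826 exonic bases with Rffl on the opposite strand, and Lig1 shares 247 with Zswim9. In these values the FPKM ratio of Lig1 to Lig3 was 2.68, 1.78, 2.71 and 3.70.

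The sliding clamp and its loader gave a mixed picture. Pcna, the clamp, was the highest gene of the role at 223, 242, 240 and 204 FPKM, with overlapping mouse pairs and a log2 difference of 0.04. Of the 5 clamp loader subunits, Rfc1, Rfc2, Rfc3 and Rfc5 had negative log2 differences, -0.34, -0.25, -0.35 and -0.08, and Rfc4 had a positive one, 0.43. Rfc4 shares 194 exonic bases with Eif4a2 on the opposite strand, which had 110, 106, 89.0 and 86.5 FPKM and was itself higher in both AOC3 lines. Rfc2 shares 952 such bases with Lat2, and Rfc5 shares 499 with Wsb2, which had 47.5, 50.9, 98.8 and 78.6 FPKM and was lower in both AOC3 lines. Polk, a translesion polymerase that also fills repair gaps, was the lowest gene of the role at 7.35, 6.01, 8.67 and 5.35 FPKM. The accessory subunits Pold2 and Pold3 had log2 differences of -0.37 and -0.20, and Xrcc1, the partner of Lig3, one of -0.06. Annotated processed pseudogenes of Pcna could share its fragments, which makes its level less certain, and this was not tested. Pseudogenes of the other members were not looked at.

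Because many gap filling genes were lower in the AOC3 lines, their promoters were searched for letters of the E2F consensus, the binding motif of the main transcription factors of S phase. The search covered TTTCCCGC and TTTGGCGC on both strands in 300 bases around each start (250 before and 50 after) from RefSeq on GRCm38.p6, the same build as mm10. Promoters of 37 of the 43 members were in the RefSeq table, and Xpc, Ddb2, Ercc3, Ccnh, Pole and Rfc2 had no entry. The letters occurred for 4 of the 37, among them 3 of 12 gap filling genes, and for 1.80% of all 27025 genes in the table. That share was not limited to expressed genes, as the members are, so the 2 are not like for like. The share among the genes tested here was not computed. The matching stretches are shown 5′ to 3′ on the strand of the gene with the motif in capitals, at chr7:44548766-44548787 (minus strand) for Pold1, chr7:100121467-100121496 (minus strand) for Pold3, chr5:151651190-151651219 (minus strand) for Rfc3 and chr15:81466186-81466215 (plus strand) for Rbx1.
Pold1: cgtatcttgtgGCGGGAAAagc
Pold3: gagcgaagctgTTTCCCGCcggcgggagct
Rfc3: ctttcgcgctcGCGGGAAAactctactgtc
Rbx1: ggaggagggggGCGGGAAAcctccgcctgc
A match describes the letters only, and no binding was measured in these lines. Pold1, Pold3 and Rfc3 had negative log2 differences between the mice and Rbx1 had -0.18, with overlapping pairs for Pold3 and Rbx1. Of the gap filling genes searched without a match, Pold2, Lig1, Xrcc1, Rfc1 and Rfc5 also had negative differences. Polk, Lig3, Pcna and Rfc4 had positive ones. Pold1 and Pold3 lie on chromosome 7 and Rfc3 on chromosome 5, where all genes tested had negative medians.

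The second comparison set the lymph node line against the primary line of the same mouse. None of the 43 members passed limma with the mouse as a block at an adjusted p under 0.05, against 0.0141% of all genes tested, and 1 (Ercc1) had an unadjusted p under 0.05, against 2.86%. None passed the fold threshold in AOC3-LN against AOC3, where 5.53% of all genes did, and none in AOC11-LN against AOC11, where 8.11% did. The median log2 difference of the members was 0.02 in the AOC3 mouse, 0.00 in the AOC11 mouse and 0.00 in the mean of both.

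Ercc1 (ENSMUSG00000003549.9, chromosome 7, 19344778 to 19356524), the partner that positions the XPF nuclease, was singled out after its values were seen. It had 27.0 and 44.4 FPKM in the AOC3 pair and 31.2 and 54.5 FPKM in the AOC11 pair. It was the only member at least 1.5-fold higher in the lymph node line of both mice, beside 1.14% of all genes tested, and no member was 1.5-fold lower in both, beside 1.24%. Its log2 differences were 0.69 and 0.80, with a mean of 0.74 (standard error 0.21, unadjusted p = 0.0158 and adjusted p = 0.999 from limma). Ercc4, whose protein works only as a dimer with that of Ercc1, did not follow it, with log2 differences of 0.12 and -0.21. The FPKM ratio of Ercc1 to Ercc4 was 5.55 in AOC3 and 6.62 in AOC11, and 9.11 and 12.6 in their lymph node lines. Ercc1 shares 106 exonic bases with Cd3eap on the opposite strand, which had 13.5, 18.7, 21.01 and 25.8 FPKM and was itself higher in both lymph node lines, and the part of this overlap in the values of Ercc1 was not tested.

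The members shifted more in the AOC11 mouse. The size of the shift, taken without its sign, had a median of 0.28 in AOC11-LN and 0.10 in AOC3-LN, beside 0.32 and 0.22 over all genes tested. It was larger in AOC11-LN for 36 of the 43 members (83.7%), beside 61.5% of all genes, and for 32 members after median scaling. The shifts had the same sign in both mice for 11 members (25.6%), beside 46.2% of all genes, and for 15 after median scaling. No p-value is attached to these counts, which compare a pair of libraries in each mouse.

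**Figure D3:**
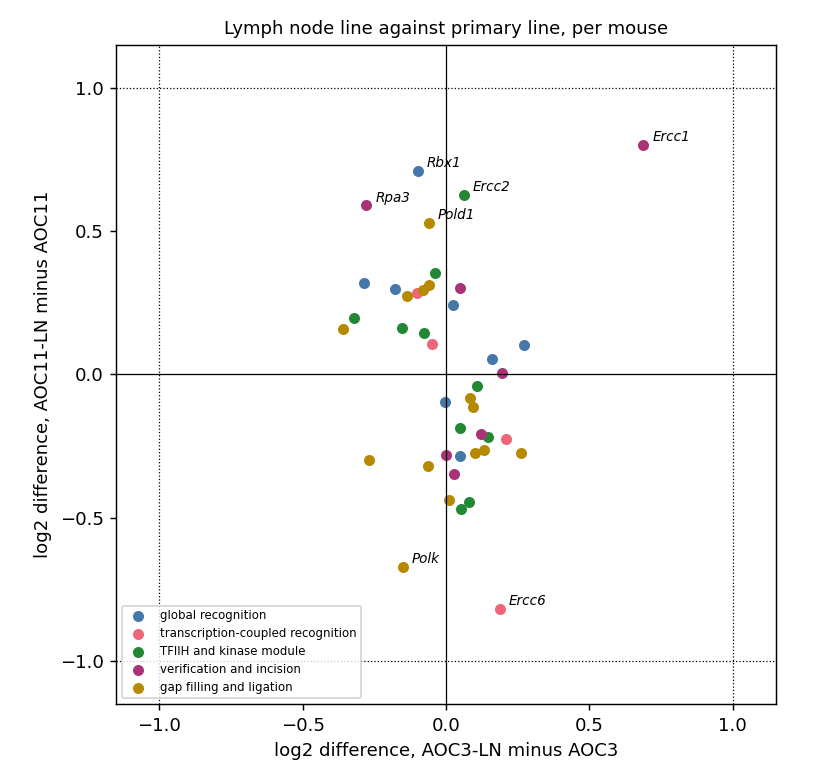
Log2 difference between the lymph node and primary line in the AOC3 mouse (horizontal axis) and the AOC11 mouse (vertical axis) for the 43 genes, 1 point per gene colored by role, with dotted lines at -1 and 1 and the genes beyond 0.5 in either mouse named. Ercc1 stands alone at the upper right (0.69 and 0.80), and the other points spread more along the vertical axis than along the horizontal one.

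Apart from Ercc1, the members with the largest shifts in AOC11-LN had small or opposite shifts in AOC3-LN. The log2 difference of Ercc6 was -0.82 in AOC11-LN and 0.19 in AOC3-LN, and Polk had -0.67 and -0.15. Rbx1, the RING subunit of the CUL4 ligase, had 84.0, 81.3, 75.9 and 127 FPKM, a difference of 0.71 in AOC11-LN and -0.10 in AOC3-LN. Ercc2 had 0.63 and 0.06, Rpa3 0.59 and -0.28, and Pold1 0.53 and -0.06. The widest negative shifts were those of low-level genes, Ercc6 and Polk. In AOC3-LN the largest differences after Ercc1 were -0.36 for Lig1 and -0.32 for Mnat1. Whether a shift differed between the mice was not tested, since each rests on 1 library a side.

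Chromosomal position, looked at after these values were seen, divided the members further. Chromosome 7 holds 7 of them (Ercc1, Ercc2, Gtf2h1, Lig1, Pold1, Pold3 and Xrcc1), and all 7 had a negative log2 difference between the mice, from -0.72 to -0.05. This count rested on the lymph node lines, where 6 of the 7 were lower on the AOC3 side, since between the primary lines 4 were lower and 3 higher. Without AOC11-LN it was 4 of 7, and both AOC3 lines lay below both AOC11 lines for 2 of them (Lig1 and Pold1). Of the 1009 genes tested on chromosome 7, 658 had a negative difference, and both AOC3 lines lay below for 39.2%. Chromosome 5 holds another 7 (Gtf2h3, Pole, Rfc1, Rfc2, Rfc3, Rfc5 and Uvssa), and 6 of them had a negative difference, as did 592 of the 922 genes tested there. The genes tested on these chromosomes as a whole had negative medians too, -0.18 over 1009 genes on chromosome 7 and -0.15 over 922 genes on chromosome 5, beside 0.01 over all genes. For chromosome 5 the median was -0.28 between the primary lines and -0.03 between the lymph node lines. The members there had medians of -0.21 and -0.20. Pole, Rfc1, Rfc3 and Rfc5 were lower on the AOC3 side by more in the primary lines, as the chromosome was, and Gtf2h3, Rfc2 and Uvssa were not. For chromosome 7 the median was -0.09 between the primary lines and -0.27 between the lymph node lines. The differences of Ercc1, Ercc2, Lig1, Pold1, Pold3 and Xrcc1 were likewise lower between the lymph node lines. That of Gtf2h1 was not, with -0.34 between the primary lines and 0.18 between the lymph node lines. In AOC11-LN against AOC11 the median of chromosome 7 was 0.23, and the members there had a median of 0.31. The part of these chromosome-wide differences in the values of the members was not tested.

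Genes around the pathway gave context. Of 18 further NER factors, 7 were higher and 11 lower in the AOC3 lines, with a median log2 difference of -0.13 and none past the threshold in the mean over both sites. The largest was Usp7, a deubiquitinase that protects UVSSA-bound CSB, with 69.7, 75.8, 50.5 and 36.6 FPKM (log2 difference 0.80, adjusted p = 0.170 from limma). It was past the threshold between the lymph node lines, at 1.06, and not between the primary lines, at 0.54. Of 4 further polymerase subunits, Pold4, the smallest subunit of polymerase delta, had 46.4 and 124 FPKM in the AOC3 pair and 31.6 and 69.5 FPKM in the AOC11 pair. Pold4 was past the fold threshold in the lymph node line of both mice, at 1.37 and 1.13 (adjusted p = 0.779 from limma for both mice), while Pold1, Pold2 and Pold3 were not past it in either. Pold4 shares 286 exonic bases on the same strand with AC109138.7, which makes its level uncertain. The 9 subunits of the COP9 signalosome, which switches off CUL4 ligases, were flat, with a median of -0.03 and a largest difference of 0.32 (Cops3). Of 6 translesion synthesis genes the largest difference was 0.96 for Poli, at 11.2, 11.7, 5.65 and 5.86 FPKM. Poli was past the threshold between the lymph node lines, at 1.03, and not between the primary lines, at 0.89.

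RNA polymerase II is the sensor of transcription-coupled repair, and 9 of its 12 subunits were higher in the AOC3 lines, beside 50.8% of all genes tested, with a median of 0.14. The mouse pairs overlapped for 7 of the 12, and both AOC3 lines lay above both AOC11 lines for 4, beside 26.3% of all genes. Its largest subunit gene, Polr2a, had 153, 180, 73.3 and 52.7 FPKM, a log2 difference of 1.42. Of 12 proliferation markers, 6 were higher and 6 lower in the AOC3 lines, with a median of -0.02 and a largest difference of -0.57 for Mcm6. Between the primary lines 3 were higher and 9 lower, with a median of -0.11, and between the lymph node lines 5 were higher and 7 lower. Both AOC3 lines lay below both AOC11 lines for 3 of the 12 markers, beside 26.7% of all genes tested, and above them for 0, beside 26.3%. Between the sites, all 12 were lower in the lymph node lines in the mean of both mice, beside 50.6% of all genes tested. Lower in each of the 2 mice were 9 of the 12, beside 3160 of all 14165 genes tested. The median of the 12 was -0.22, beside -0.00 over all genes tested. Of 12 p53 target genes 11 passed the filter, 6 higher and 5 lower in the AOC3 lines. The 3 past the threshold were all higher there, beside 11.1% of all genes tested past it in either direction. Gdf15 had 2.90, 4.73, 0.0494 and 0.0252 FPKM (log2 difference 2.22), Cdkn1a 14.6, 23.8, 6.97 and 7.64 (1.30) and Plk2 193, 176, 132 and 55.1 (1.10). Gdf15 passed the filter only through the AOC3 lines. The value of Plk2 rested on AOC11-LN, since the difference was 0.55 between the primary lines and 1.66 between the lymph node lines. Ddb2, whose human counterpart is a p53 target, had its higher values in the same pair of lines. The 5 lower targets included Trp53inp1 (-0.53) and Aen (-0.39). The paper reports Trp53 mutations in all lines, and a link of Ddb2 to p53 was not tested. No gene of these lists passed limma at an adjusted p under 0.05 in either comparison.

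Genes that activate and clear DMBA were read as the last list. Cyp1a1 was listed at 0 in all lines and Cyp1b1 had at most 0.0953 FPKM, so the cytochromes that activate DMBA were near the floor in culture. Of the 7 genes of this list that passed the filter, 3 were higher and 4 lower in the AOC3 lines. Arnt, the partner of the Ah receptor, had 8.33, 4.45, 19.7 and 19.0 FPKM (log2 difference -1.43), and Nqo1, a quinone reductase, had 7.04, 1.79, 0.950 and 2.10 (1.004). The value of Nqo1 rested on AOC3, since the difference was 1.89 between the primary lines and 0.11 between the lymph node lines. No NER member was past the threshold in the mean over both sites.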

How the data were processed

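RNA was sequenced from 4 cultured lines, with 1 library per line made with a stranded mRNA kit (TruSeq). The authors trimmed reads with Trim Galore, mapped them to mm10 with TopHat2 and deposited FPKM values from Cufflinks on GENCODE M21 with default parameters. Software versions are not given, and whether the strand was used in mapping and counting is not stated beyond the default parameters. The table has no read counts, and depth was estimated from the spacing of low FPKM values of 9528 genes with 1 transcript. Between 2249 and 2575 values per line were used, and 71.6% to 74.8% of these lay within 0.1 of a whole multiple. Estimated fragments use the longest transcript and are rough.

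The study's methods name a log2 transformation and quantile normalization. Here log2(FPKM + 1) was quantile-normalized over all 34721 entries, where the pseudocount of 1 and the set of entries were choices made here, and log2 differences are on this scale, which understates changes of low genes. The filter asked for 1 FPKM or more in any line. limma 3.58.1 in R 4.3.3 (lmFit, eBayes with trend) was fitted to all 14165 genes with Benjamini-Hochberg adjustment, once for the mice and once for the sites with the mouse as a block. Both lines of a mouse took the place of replicates, so p-values measure the spread between these lines and not between mice. The fold threshold was a log2 difference of more than 1 in either direction, without a p-value. The code was tested on simulated data.

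Members and lists were chosen with earlier results of these data known. Values per line are given for genes past the fold threshold, for the 3 largest differences between the mice in each role, and for the highest and lowest gene of each role. From other lists, up to 3 genes past the threshold are named, or else the largest. Alternatives were a pseudocount of 0.1, no quantile normalization, median scaling, no filter, a filter of 5 FPKM, a 1.5-fold threshold, other blocks and each line left out.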

Additional observations from a re-analysis of the deposited data

Results flagged for a closer look

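Ephx1, which encodes the microsomal epoxide hydrolase that takes part in DMBA activation, moved in opposite directions in the 2 mice. The AOC3 pair had 6.22 FPKM in the primary and 0.881 in the lymph node line (log2 difference -1.83), and the AOC11 pair had 3.24 and 11.1 FPKM (log2 difference 1.44). The shift in the AOC3 mouse less that in the AOC11 mouse was -3.27. It was singled out because both shifts were past the fold threshold with opposite signs, and the difference between the mice was not tested. No member of the NER list met this description.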

How the results depend on the processing

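No member was called by limma between the mice or between the sites under any alternative, including protein-coding genes only, which was added after the data were seen. The count between the mice was 0 with each line left out. Members at an unadjusted p under 0.05 between the mice numbered 10 without a filter (13.1% of all genes), 11 without AOC11 (20.8%), 0 without AOC3 (10.8%) and 0 without AOC3-LN (7.75%), where the lone line is assumed to vary like the others. With the site as a block, which stands in for a replicate block, 4 members had an unadjusted p under 0.05 (16.0% of all genes) and 0 were called. At a 1.5-fold threshold, 4 members passed between the AOC3 and AOC11 lines (26.9% of all genes), 4 between AOC3 and AOC11 (28.8%), 8 between AOC3-LN and AOC11-LN (36.0%), 1 in AOC3-LN (13.8%) and 6 in AOC11-LN (24.6%). Between the mice, 0 to 1 members passed the fold threshold when 1 line was left out, beside 10.4% to 14.0% of all genes. Between the lymph node lines, 3 passed with a pseudocount of 0.1 (23.8% of all genes), 2 without quantile normalization (16.8%) and 0 after median scaling (16.5%). In AOC11-LN 1 passed (Ercc6) with a pseudocount of 0.1 (14.6%). The median between the mice ranged from -0.0494 to 0.0819 with 1 line left out and was -0.1121 without quantile normalization, where that of all genes was -0.0565. The median between the sites in the mean of both mice, reported as 0.00, was -0.0246 without quantile normalization and 0.0225 after median scaling. Except where the threshold or the set of lines itself was altered, the cause was not tested. Single values were refitted for 25 named genes and not for the other members. Of their 832 values, 826 kept their side of the fold threshold, 5 passed it anew and 1 dropped below it. The sign changed for 27 of them, 9 with a line left out and 18 under other scalings. All 27 had a reported log2 difference of at most 0.39 in size and none was past the threshold. Without AOC11-LN the difference between the mice changed sign for Ercc6, Ercc2, Ercc1, Polk and Pcna. At 5 FPKM, 39 members passed the filter.

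Each line is 1 library and each pair of lines 1 mouse, so mouse, length of DMBA treatment, tumor and culture cannot be told apart. Levels are FPKM values without counts, strand assignment was not stated, and RNA levels say nothing of repair activity, which was not measured.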
